A study of Mus musculus with 8 samples.

Results

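The Wnt ligands, their Frizzled and Lrp receptors, and the secreted proteins that strengthen or block them were followed across 8 mouse melanomas. Members were taken by gene symbol: every numbered gene of the Wnt, Fzd, Sfrp, Dkk, Rspo, Lgr and Wif families on the array, together with Lrp5, Lrp6, Axin2 and Frzb. This gave 46 genes with 60 probes, out of 16593 named genes and 25697 probes. Of the 46 genes, 30 (65.2%) had a probe detected on at least 1 array at a detection p under 0.05, against 63% of all named genes.

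Wnt proteins are lipid-modified secreted ligands that bind Frizzled receptors, and the Lrp5 or Lrp6 co-receptor directs the signal to beta-catenin, which then activates genes through TCF and LEF factors. R-spondins keep the receptors on the cell surface through Lgr proteins, whereas secreted Frizzled-related proteins and Wif1 bind the ligands outside the cell. Melanocytes arise from neural crest cells under Wnt signals, and in melanoma Wnt5a, which acts mainly without beta-catenin, is known for its link with cell motility.

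All tumours were induced in FVB/n mice of genotype DCT-TVA;Ink4a/Arf lox/lox. In these mice the Dct promoter places the receptor for avian viruses on melanocytes, and the virus carries NRAS Q61R, an oncogenic form of the GTPase NRAS, joined to Cre, which deletes the floxed Ink4a/Arf locus. In 7 tumours, labelled TRE-NRAS-IRES-Cre + Tet-off, doxycycline food switched NRAS off from a tumour volume of 1000 mm3, and these tumours were resistant to the withdrawal. In the control, 1 tumour labelled NRAS-IRES-Cre, NRAS stayed on, and its description names no Tet-off element. Ages, times of sampling and the mouse of each tumour are not stated, so the spread behind each p-value is that of these samples and may be technical.

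Each tumour was read on 1 Illumina bead array, with 11821 to 12851 probes detected per array. Levels below are log2 intensities after background correction and quantile normalization, and the lowest detected level was between 5.12 and 5.36 on each array. Levels of different genes come from different probes and are not set against each other. Of 8 melanocyte markers with a probe, Mitf, Tyr, Tyrp1, Dct, Mlana and Pax3 were not detected in any tumour. Pmel was detected in 2 resistant tumours only, at no more than 5.26. Ednrb was detected in the control (9.60) and all 7 resistant tumours (8.76 to 10.00). Of 15 fibroblast markers 14 were detected. The tumours were bulk tissue, so fewer cells of a type and less RNA per cell cannot be told apart. Resistant tumour 1 had a summed skeletal muscle level of 15.62, and resistant tumour 2 one of 13.34, against 9.15 in the control and 8.88 to 11.53 in the other tumours. Resistant tumour 6 stood apart over all genes, with 10.8% of them at least 2-fold above the control and 12.5% at least 2-fold below, and leaving it out changed no call among the members.

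**Figure D1:**
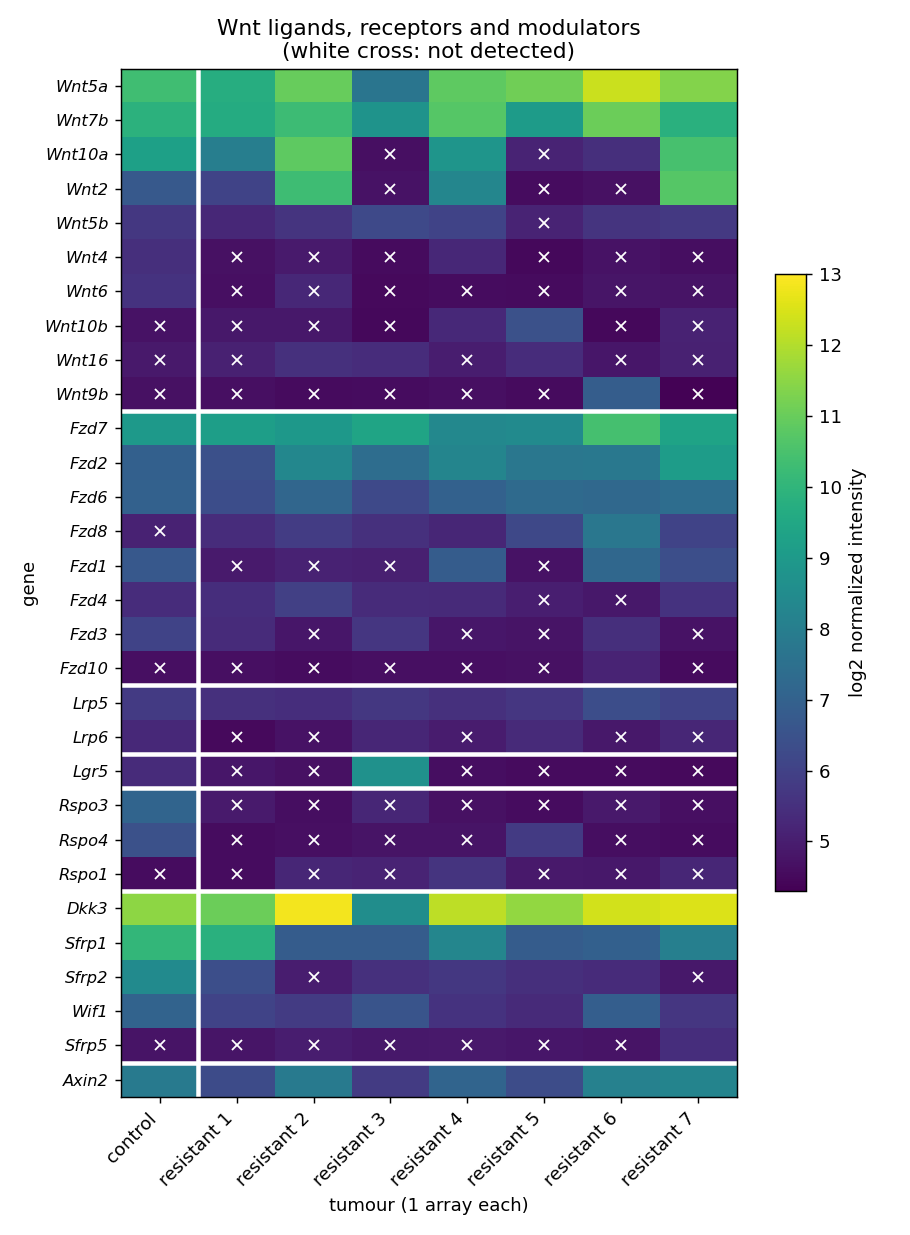
Log2 normalized intensity of the 30 detected member genes (rows) in the control and the 7 resistant tumours (columns), with values that were not detected marked. Wnt2 and Wnt10a run from not detected to above 10 among the resistant tumours, and Rspo3 and Wnt6 were detected in the control alone.

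Promoter sequences are shown for the 3 genes that the results turn on and that the RefSeq promoter table holds: Wnt2, the ligand with the largest SD among the resistant tumours (2.70, with undetected readings included), Axin2, the feedback gene of the beta-catenin branch, and Sfrp2, the secreted inhibitor whose resistant mean lay furthest below the control. Each runs 5′ to 3′ from 250 bases before to 50 bases after the start of the gene in assembly GRCm38.p6. The capitals mark the GC box GGGCGG or its reverse complement CCGCCC.

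Wnt2, chr6:18030396-18030695, - strand: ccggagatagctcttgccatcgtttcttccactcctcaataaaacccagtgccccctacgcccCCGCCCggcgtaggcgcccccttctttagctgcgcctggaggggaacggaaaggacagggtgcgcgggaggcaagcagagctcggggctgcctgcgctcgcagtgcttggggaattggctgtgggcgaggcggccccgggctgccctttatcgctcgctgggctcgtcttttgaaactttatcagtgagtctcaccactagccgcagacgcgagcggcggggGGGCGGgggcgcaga
Axin2, chr11:108920099-108920398, + strand: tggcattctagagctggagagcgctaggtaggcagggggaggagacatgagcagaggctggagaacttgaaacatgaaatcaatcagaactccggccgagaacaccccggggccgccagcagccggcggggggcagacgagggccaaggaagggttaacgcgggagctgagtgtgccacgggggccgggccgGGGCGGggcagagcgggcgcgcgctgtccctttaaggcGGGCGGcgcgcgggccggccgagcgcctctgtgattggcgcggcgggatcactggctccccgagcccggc
Sfrp2, chr3:83766071-83766370, + strand: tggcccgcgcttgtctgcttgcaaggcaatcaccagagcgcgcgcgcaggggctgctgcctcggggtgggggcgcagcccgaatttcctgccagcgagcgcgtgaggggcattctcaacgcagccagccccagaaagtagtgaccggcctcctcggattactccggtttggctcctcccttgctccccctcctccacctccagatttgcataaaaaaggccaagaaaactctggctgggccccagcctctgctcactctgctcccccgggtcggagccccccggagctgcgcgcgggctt

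The table held 17 of the 30 detected members, with 19 windows. The Wnt2 and Axin2 windows held 2 GC boxes each and the Sfrp2 window 0. GGGCGG on either strand was found in 13 of the 19 member windows and in 35.7% of all 32851 windows. The member windows had a median GC content of 66.7%, against 52.7% for all windows. The TCF/LEF forms CTTTGAT and CTTTGAA, on either strand, were not in these letters in any of the 3 windows shown. They were found in 1 of 19 member windows and 8.65% of all windows. The AP-1 form TGANTCA was found in 1 of 19 and 7.81%.

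Resistant tumours as a group were first set against the control with limma, which asks whether the mean of 7 differs from the single control by more than the spread among the 7. Of the 30 detected members, 1 fell (Rspo3) and 0 rose at an adjusted p under 0.05, beside 0.21% of 10461 genes that fell and 0.00956% that rose. At an unadjusted limma p under 0.05, 7 members were lower and 0 higher, against 5.35% and 2.86% of all genes. The median difference was -0.046 over the detected members and -0.022 over all genes tested. All 7 resistant tumours read below the control for 8 members (26.7% of 30, against 17% of all genes) and above it for 2 (6.67%, against 13.3%). A gene that passed the detection filter through the control alone had to read lower in the resistant tumours. Passing through resistant tumours alone favours readings above the control. These counts therefore describe the members and do not support a direction. Among the 10 members detected on all 8 arrays, all 7 tumours were below the control for 2, Sfrp1 and Wif1, and above it for 0, against 17.7% and 13.8% of 7297 such genes.

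Of 19 Wnt ligand genes with a probe, 10 were detected. Wnt1, Wnt2b, Wnt3, Wnt3a, Wnt7a, Wnt8a, Wnt8b, Wnt9a and Wnt11 were not detected on any array. None of the 10 passed the test between resistant tumours and control, and Wnt2 and Wnt10a spread the most among the resistant tumours.

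Wnt2, a ligand of the beta-catenin branch known from lung and placenta development, read 6.73 in the control. Its level in resistant tumours 7, 2, 4 and 1 was 10.70, 10.31, 8.29 and 6.05, and it was not detected in tumours 3, 5 and 6. Tumours 7, 2 and 4 were thus 15.8-, 12.0- and 2.95-fold above the control, while tumours 3, 5 and 6 were at least 2.79-, 2.74- and 3.03-fold below it. The control lay inside the range of the resistant tumours, and the mean difference was 0.32 (SE 2.45, limma adjusted p = 0.986).

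Wnt10a, another beta-catenin ligand known for its part in hair follicle and tooth formation, read 9.24 in the control. Resistant tumours 2, 7, 4, 1 and 6 read 10.85, 10.47, 8.83, 8.02 and 5.46, and it was not detected in tumours 3 and 5. Tumours 2 and 7 were 3.06- and 2.35-fold above the control and tumour 6 was 13.7-fold below it. The same 2 tumours were highest for both Wnt2 and Wnt10a, and tumours 3 and 5 lacked both at the level of detection. The difference of means for Wnt10a was -1.60 (SE 2.33, limma adjusted p = 0.908).

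Acta2, smooth muscle actin, moved with these ligands, and through it the summed level of the smooth muscle and pericyte markers, of which 8 of 9 were detected. The control had a sum of 12.13, tumours 2, 7 and 4 had 14.32, 14.25 and 12.81, and the other resistant tumours had 10.84 to 12.41. Acta2 alone read 14.21 in tumour 2 and 14.14 in tumour 7, and 9.77 to 12.39 in the other resistant tumours. The pericyte markers did not move alike. Cspg4 was 6.41 in the control and 8.56, 8.46 and 8.49 in tumours 2, 4 and 7. It was also 8.24 in tumour 5, where neither ligand was detected. Rgs5 was 8.81 in the control and 7.65 and 7.19 in tumours 2 and 7. Notch3 (7.09 in the control) and Mcam (9.33) also read lower in both, at 5.84 and 6.79, and at 8.55 and 9.13. Myh11 and Tagln, smooth muscle markers of the same list, were each detected in 1 resistant tumour, at 5.57 and 5.23 in tumour 1. Cnn1 was not detected. The part of these cells in the ligand levels was not tested.

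**Figure D2:**
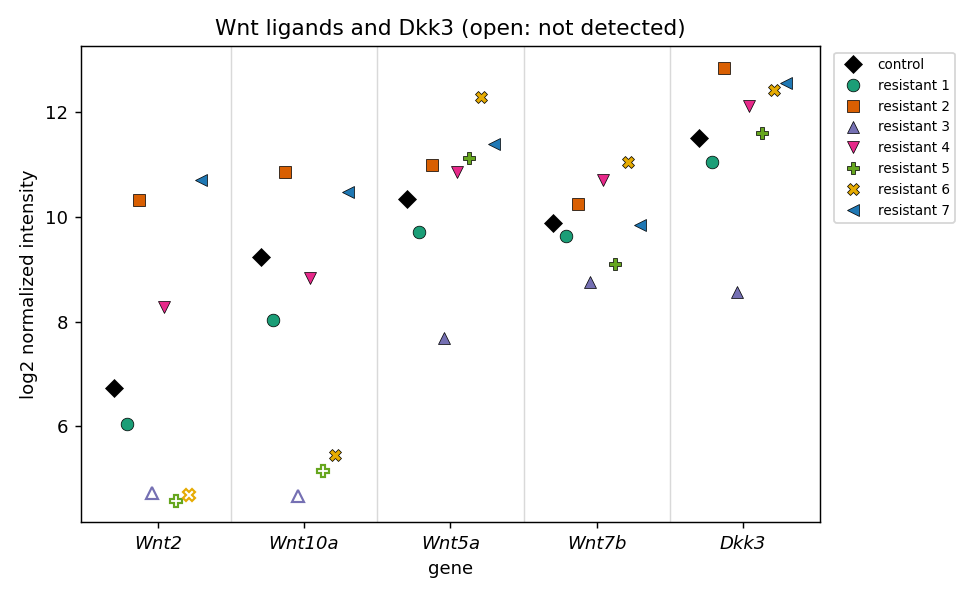
Log2 normalized intensity of Wnt2, Wnt10a, Wnt5a, Wnt7b and Dkk3 in each tumour (1 symbol per tumour, open where not detected). Tumours 2 and 7 are highest for Wnt2 and Wnt10a, tumour 6 is highest for Wnt5a at 12.29, and tumour 3 is lowest for Wnt5a, Wnt7b and Dkk3.

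Wnt2 lies on chromosome 6 between St7, named as a suppressor of tumorigenicity, and Asz1, a germ cell gene. Counting 10 protein-coding genes on each side in the RefSeq table, 11 neighbours were detected on the arrays, and they were looked at after the Wnt2 values had been seen. In tumours 2, 4 and 7 respectively 6, 6 and 7 of these 11 were at least 2-fold above the control, where 5.55%, 6.24% and 4.63% of all genes were. In tumours 1, 3, 5 and 6 the numbers were 1, 1, 2 and 2.

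St7 read 7.44 in the control and was 10.48, 11.09 and 11.77 in tumours 2, 4 and 7, which is 8.24-, 12.5- and 20.1-fold higher, and 6.91 to 7.16 in the other 4. Met, which encodes the receptor of hepatocyte growth factor and is itself listed among beta-catenin targets, was not detected in the control. It read 10.32, 9.51 and 9.83 in tumours 2, 4 and 7, at least 33.5-, 19.0- and 23.8-fold higher, and 5.92 in tumour 5. The 3 tumours with the most Met and St7 were thus the 3 with Wnt2 above the control.

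The caveolin genes Cav1 and Cav2, which encode coat proteins of membrane pits, lie further out on the same side. Cav2 was 5.29 in the control and 10.54, 11.60 and 8.30 in tumours 2, 4 and 7, but it was also above the control in tumours 3 (7.70) and 5 (7.82). Cav1 was 12.36 in the control, 13.96, 14.75 and 14.25 in tumours 2, 4 and 7, and lowest in tumour 6 at 9.69. The pattern differed in extent between the 3 tumours: Mdfic was above the control in tumours 2 (5.35-fold) and 7 (8.61-fold), and Lsm8 in tumour 4 (9.99-fold). On the far side Tspan12 was within 1.13-fold of the control in all 3. Ing3, of the family of chromatin readers named inhibitors of growth, passed detection in all 7 resistant tumours but not in the control, with readings 0.39 to 1.41 above the control on the log2 scale. Wnt16, the outermost detected gene, was detected only in tumours 2 (5.50), 3 (5.41) and 5 (5.39). Around Wnt10a, on chromosome 1 beside Wnt6, 12 neighbours were detected and 0 of them were at least 2-fold above the control in tumours 2 and 7.

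**Figure D3:**
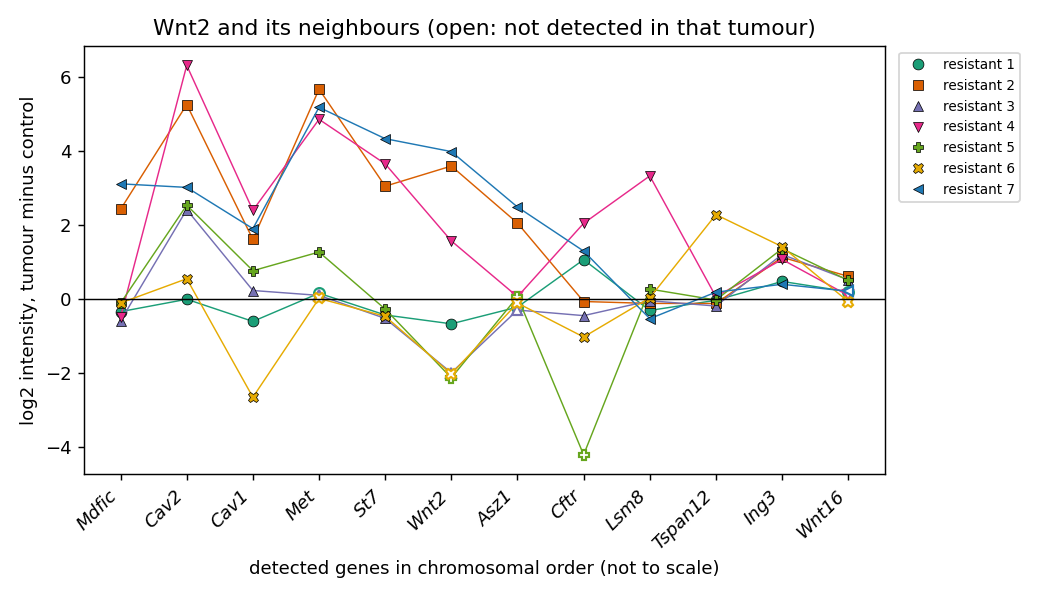
Difference in log2 intensity from the control for Wnt2 and its 11 detected neighbours in chromosomal order, 1 line per resistant tumour (open where not detected in that tumour). From Cav2 to Wnt2 the lines of tumours 2, 4 and 7 lie above 0 at every gene, and on the other side the genes at least 2-fold above the control were Asz1 in tumours 2 and 7, Cftr in tumours 1, 4 and 7, Lsm8 in tumour 4, Tspan12 in tumour 6 and Ing3 in tumours 5 and 6.

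Wnt5a and Wnt7b were detected in all 8 tumours. Wnt5a read 10.35 in the control, while the resistant tumours spanned 7.68 to 12.29 around a median of 10.98. It was above the control in 5 of 7, by 3.84-fold in tumour 6, and 6.36-fold below it in tumour 3. The other detected Wnt5a probe read 8.05 in the control and gave the same extremes, 9.94 (tumour 6) and 5.49 (tumour 3). Wnt7b, a ligand that can signal through beta-catenin, read 9.88 in the control, while the resistant tumours spanned 8.75 to 11.05 around a median of 9.84. Tumour 6 was again the highest and tumour 3 the lowest, and the second probe ran from 5.38 in tumour 3 to 7.79 in tumour 6. The control lay inside the resistant range for both, with differences of 0.23 (SE 1.36) for Wnt5a and 0.03 (SE 0.77) for Wnt7b.

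The remaining ligands were detected in some tumours only. Wnt9b was detected in tumour 6 alone, at 6.86, with 6.94 on its other probe, and was at least 3.04-fold above the control there. Wnt10b was detected in tumours 5 (6.45) and 4 (5.30) and not in the control. Wnt5b, a close relative of Wnt5a, was 5.72 in the control and 5.26 to 6.22 in 6 resistant tumours, and not detected in tumour 5. Wnt6 was detected in the control alone, at 5.57, at least 1.25-fold above the resistant mean. Wnt4 was 5.47 in the control and was detected at 5.28 in tumour 4 and in no other. All 7 resistant tumours read below the control for Wnt4 and Wnt6, and neither passed the test (limma adjusted p = 0.604 and 0.498).

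All 8 Frizzled genes with a probe were detected in at least 1 tumour, and none passed the test between resistant tumours and control. Fzd2, a receptor used by Wnt5a, read 6.98 in the control and 6.42, 7.78 and 9.10 as the lowest, median and highest resistant value. It was above the control in 6 of 7, and at least 2-fold above in tumours 2, 4 and 7 (2.57-, 2.45- and 4.33-fold), the tumours with Wnt2 above the control. The mean difference was 0.88 (SE 0.78, limma adjusted p = 0.822).

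Fzd7, a receptor known from stem cells and tumours, read 8.98 in the control, while the resistant tumours spanned 8.36 to 10.42 around a median of 9.19. Tumour 6 stood highest, 2.71-fold above the control. Fzd8 just missed detection in the control, at 5.14 with a detection p of 0.0689. It passed in all 7 resistant tumours, at 5.25 to 7.75 with a median of 5.85. The lowest of these, in tumour 4, passed with a detection p of 0.0489. The group mean was at least 1.67-fold above the control, with all 7 above it, and the test was not passed (difference 0.85, SE 0.78, limma adjusted p = 0.829). Fzd8 was kept by the detection filter through the resistant tumours alone, which favours readings above the control. Tumour 6 was again the highest, at 7.75 against at most 6.18 in the other 6. Fzd10 was detected in tumour 6 alone, at 5.16 with a detection p of 0.0439, and its other probes were not detected on any array. Fzd1 was also highest in tumour 6, which stood apart over all genes. Of 5 detected cartilage and bone markers, 2 were also highest there, Bglap (osteocalcin) at 10.65 against at most 6.49 in any other tumour, and Alpl at 6.28. Sox9, Col2a1 and Ibsp were not. The part of those cells was not tested.

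Fzd1 was either clearly present or not detected. It read 6.71 in the control, 7.22, 6.84 and 6.39 in tumours 6, 4 and 7, and was not detected in tumours 1, 2, 3 and 5. Fzd3, a receptor best known from axon guidance and planar polarity, read 6.04 in the control and was lower in all 7 resistant tumours, detected in tumours 3 (5.66), 6 (5.49) and 1 (5.36) and not in the other 4. Its difference was -0.95 (SE 0.40, limma adjusted p = 0.603). Fzd4 was 5.41 in the control, 5.35 to 5.95 in 5 resistant tumours and not detected in tumours 5 and 6. Fzd6 was 7.01 in the control and 6.21 to 7.41 in the resistant tumours. For both the control lay within the resistant range.

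The co-receptors did not pass the test either. Lrp5 read 5.78 in the control, while the resistant tumours spanned 5.45 to 6.35 around a median of 5.69. Lrp6 read 5.29 in the control and passed detection in tumours 5 (5.35) and 3 (5.24). Their differences were -0.03 (SE 0.35) and -0.31 (SE 0.33).

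The single member that passed the test was an R-spondin. Rspo3, which enhances Wnt signals by clearing the ligases that remove Frizzled from the membrane, read 7.12 in the control. It was not detected in any of the 7 resistant tumours, whose readings ran from 4.59 to 5.24. The resistant mean was at least 3.65-fold lower, with a difference of -2.31 (SE 0.28, limma adjusted p = 0.0226) and every tumour below the control. Without resistant tumour 6 the adjusted p was 0.0274. Rspo3 was kept by the detection filter through the control alone, so its direction was fixed by that filter, and over all 16593 genes with no filter the adjusted p was 0.0139. The control here is 1 array, and the call was lost without resistant tumour 2 (adjusted p = 0.0764), tumour 4 (0.0551), tumour 7 (0.0503) or tumours 1 and 2 together (0.0824). It also missed the threshold with no background correction (0.0728), on the authors' normalized values (0.0722) and against a 2-fold limit (0.816).

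Rspo4, known for its part in nail formation, was 6.44 in the control, 5.76 in tumour 5 and not detected in the other 6. Its difference was -1.62 (SE 0.42, limma adjusted p = 0.328). Without tumour 5 the adjusted p was 0.0332, with the gene then kept by the control alone, so its direction was fixed by the filter. Rspo1 was detected in tumour 4 alone, at 5.59, and Rspo2 in none. Of the R-spondin receptors, Lgr5, a stem cell marker of gut and hair follicle and a beta-catenin target, was 5.37 in the control and 8.70 in tumour 3, which is 10.1-fold higher. It was not detected in the other 6 resistant tumours, and Lgr6 was not detected in any. In tumour 3, as in tumour 5, Wnt2 and Wnt10a were not detected, and Wnt5a, Wnt7b, Dkk3 and Axin2 were at their lowest in tumour 3. Of 13 keratinocyte and hair follicle markers with a probe 2 were detected, and Krt5, Krt14 and Krt15 were among those that were not. Krt10 was detected in the control (8.62) and all 7 resistant tumours, at 8.71 in tumour 3, and Trp63 in tumour 6 alone (5.25). The part of such cells in the Lgr5 level was not tested.

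Of the secreted inhibitors detected in the control, Sfrp1, Sfrp2 and Wif1 read lower in all 7 resistant tumours and Dkk3 did not. None of them passed the test, and 17% of all genes read below the control in all 7. Choosing genes by their detection in the control favours lower resistant readings. Sfrp5, not detected in the control, read above it in 6 of 7. Sfrp2, a secreted Frizzled-related protein made by mesenchymal cells, read 8.47 in the control. In the resistant tumours it was 6.38 in tumour 1 and 5.38 to 5.70 in tumours 3, 4, 5 and 6, and it was not detected in tumours 2 and 7. Tumour 1 was 4.25-fold below the control, tumours 3, 4, 5 and 6 were 7.75-, 6.80-, 7.91- and 8.47-fold below, and tumours 2 and 7 were at least 8.91- and 8.59-fold below. The groups did not overlap. The difference was -2.99 (SE 0.48), which did not pass the test (limma adjusted p = 0.073). It passed without tumour 1 (limma adjusted p = 0.0147), with a larger offset (0.0346) and with median scaling (0.0480). Median scaling also moved the median of all genes to -0.20. Sfrp2 did not pass with no background correction, on the authors' normalized values or against a 2-fold limit. Leaving out each resistant tumour gave limma adjusted p-values from 0.0147 to 0.185. Over all alternatives the difference lay between -3.19 and -2.01.

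Sfrp1 was detected in all 8 tumours and read 10.07 in the control. Tumour 1 was close to the control at 9.84, tumours 4 and 7 read 8.29 and 8.07, and tumours 2, 3, 5 and 6 lay between 6.83 and 6.98. The fold below the control was thus 1.18 in tumour 1 and 9.45 in tumour 2. The difference was -2.40 (SE 1.05, limma adjusted p = 0.607), a mean 5.30-fold lower with a wide spread. Tumour 1, the highest for both Sfrp1 and Sfrp2 among the resistant tumours, was also the highest in summed skeletal muscle (15.62), lymphocyte (11.98, against 7.39 to 9.14 in the other resistant tumours) and adipocyte markers (9.94, against 6.85 to 8.86). The part of these cells was not tested.

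Wif1, which binds Wnt proteins directly, read 7.08 in the control, while the resistant tumours spanned 5.32 to 6.91 around a median of 5.82. The fold below the control ran from 1.13 in tumour 6 to 3.38 in tumour 5 (difference -1.09, SE 0.54, limma adjusted p = 0.643). Sfrp5 was detected in tumour 7 alone, at 5.44, and Sfrp4 and Frzb were not detected. Dkk3, a divergent relative of the Lrp5 and Lrp6 inhibitor Dkk1, was 11.51 in the control, 8.57 in tumour 3 and between 11.04 and 12.85 in the other 6. Tumour 3 was 7.67-fold below the control, whereas tumours 2 and 7 were 2.53- and 2.07-fold above it. Dkk1, Dkk2 and Dkk4 were not detected.

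The summed level of the 14 detected fibroblast markers was 15.70 in the control and 14.03 to 15.61 in the resistant tumours, but the single markers were divided. Of the 14, 4 were above all 7 resistant tumours in the control (Col3a1, Thy1, Fbln1 and Fbln2), and 10 were not. Among the 4, Thy1 read 13.43 in the control and 9.33 to 11.80 in the resistant tumours, and Fbln2 12.44 and 7.28 to 10.87. Among the 10, Dcn, an abundant fibroblast proteoglycan, read 13.68 in the control and 14.57, 14.64 and 14.57 in tumours 2, 4 and 7, and Dpt, another matrix protein, read 6.89 in the control and up to 10.31 in tumour 4. Endothelial markers were also summed higher in the control (12.86, against 11.58 to 12.64), and macrophage markers lower (13.25, against 13.85 to 14.57). These lists were divided too. Of 9 endothelial markers, 2 were highest in the control and 7 were not, and Esam weighed most in the sum (12.40, against 10.16 to 11.58). Pecam1 and Eng had positive differences (0.66 and 0.61). Of 8 detected macrophage markers, Mrc1 had a negative difference (-0.53). The part of these cell types in the Sfrp and Rspo levels was not tested.

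**Figure D4:**
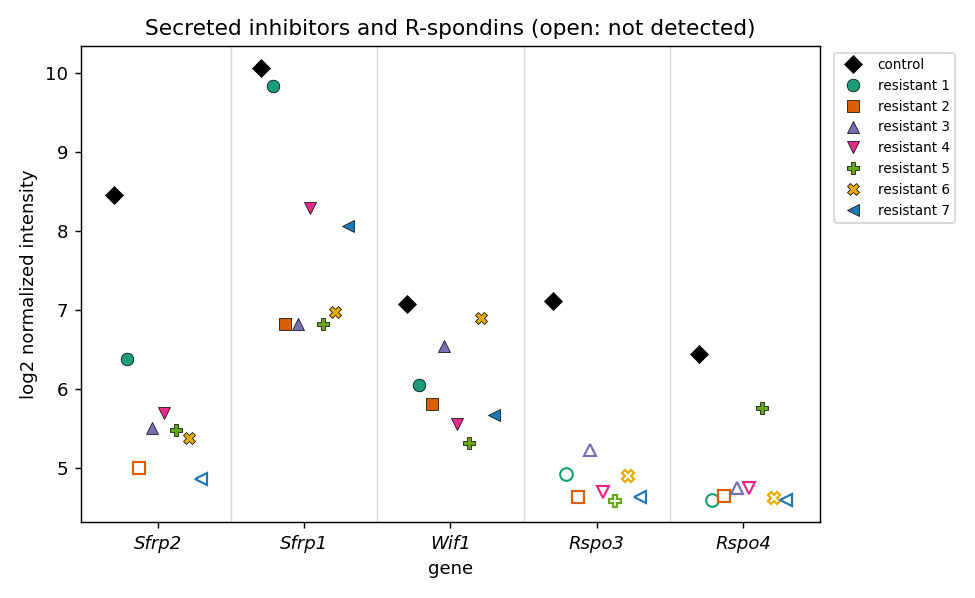
Log2 normalized intensity of secreted modulators in each tumour (open where not detected). The control lies above all 7 resistant tumours for Sfrp1, Sfrp2, Wif1, Rspo3 and Rspo4, with tumour 1 at 9.84 next to the control for Sfrp1.

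Axin2, the scaffold that limits beta-catenin and is switched on by it, read 7.84 in the control. Resistant tumours 7, 6, 2, 4, 5, 1 and 3 followed in falling order at 8.24, 8.12, 7.84, 7.11, 6.33, 6.28 and 5.80. Tumour 3 was 4.12-fold below the control and tumours 1 and 5 were 2.95- and 2.85-fold below, while tumours 2, 6 and 7 were within 1.32-fold of it. The difference of means was -0.74 (SE 0.91, limma adjusted p = 0.887). Tumours 2 and 7, the highest for Wnt2 and Wnt10a, read near the control for Axin2. So did tumour 6, in which Wnt2 was not detected and Wnt10a read 5.46. Tumour 4, 2.95-fold above the control for Wnt2, was 1.66-fold below it for Axin2. The part of any ligand in the Axin2 level was not tested.

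Each resistant tumour was also set alone against the control, with undetected values held at the detection limit and 2-fold as the mark. There is 1 array on each side, so these are descriptions with no replicate check. The members at least 2-fold higher numbered 0, 4, 1, 2, 1, 5 and 5 in tumours 1 to 7, where 4.74%, 5.55%, 6.94%, 6.24%, 6.02%, 10.8% and 4.63% of all genes were. The members at least 2-fold lower numbered 7, 6, 11, 5, 8, 6 and 5, where 4.86%, 7.08%, 8.55%, 7.87%, 8.02%, 12.5% and 5.77% of all genes were. Rspo3 and Sfrp2 were among the lower members in all 7 tumours. The higher members were Wnt2, Wnt10a, Fzd2 and Dkk3 in both tumours 2 and 7, joined by Wnt5a in tumour 7. In tumour 6 they were Wnt5a, Wnt7b, Wnt9b, Fzd7 and Fzd8.

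Other genes of the pathway were taken from 3 lists. Of all genes, 2.86% were higher and 5.35% lower at an unadjusted limma p under 0.05, and the list counts below stand beside these shares. Among genes of Wnt secretion and reception, 14 of 20 with a probe were detected, and limma called 0 higher and 0 lower, with 0 and 1 at an unadjusted p under 0.05. Their median difference was -0.15. All 7 resistant tumours were below the control for 2 of the 14, Notum and Ptk7, and above it for 0, against 17% and 13.3% of all genes. Notum, an enzyme that removes the lipid from Wnt proteins and is itself a beta-catenin target, read 8.72 in the control and 5.17 to 7.47 in the resistant tumours (difference -2.37, SE 0.66, limma adjusted p = 0.361). Ptk7, a co-receptor of the polarity branch, read 9.12 and 4.82 to 8.45 (difference -2.32, limma adjusted p = 0.629). The glypicans Gpc3 and Gpc4, cell surface carriers of Wnt proteins, were highest in tumour 6, at 9.07 and 9.16, against 8.83 and 7.00 in the control.

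Among genes acting inside the cell, 37 of 50 with a probe were detected and 0 were called in either direction, with 1 higher and 4 lower at an unadjusted limma p under 0.05. Their median difference was -0.08. All 7 resistant tumours were below the control for 6 of the 37 and above it for 1, against 17% and 13.3% of all genes. The 6 included the kinases Gsk3b, which marks beta-catenin for destruction, and Nlk, which restrains TCF and LEF factors. They also included Ctnnb1, the beta-catenin gene, at 12.33 in the control and 11.63 to 12.00 in the resistant tumours. Gsk3b read 8.86 in the control and 7.47 to 8.28 in the resistant tumours (difference -1.05, limma adjusted p = 0.456). Nlk read 8.94 and 7.76 to 8.44 (difference -0.94, limma adjusted p = 0.397). Csnk1g1, a casein kinase, read 5.88 in the control, with resistant tumour 1 the only other tumour where it was detected (5.28). Tle2, a corepressor, had the widest range of this list, from 5.97 in tumour 1 to 9.06 in tumour 6, around 6.76 in the control.

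Among listed targets of beta-catenin, 20 of 32 with a probe were detected and 0 were called, with 0 higher and 2 lower at an unadjusted limma p under 0.05. Their median difference was 0.13. Cd44, an adhesion receptor for hyaluronan, read 11.05 in the control and 9.41 to 10.50 in the resistant tumours (limma adjusted p = 0.558). Sox9, a transcription factor, read 7.60 and 7.43 to 8.47 (limma adjusted p = 0.787). Lef1, Nkd1, Rnf43 and Znrf3 were not detected.

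A few targets were picked after their values were seen, because they varied with the tumours described above. Sp5, a repressor induced by Wnt signals, read 5.82 in the control, then 8.93, 8.91, 7.60 and 5.80 in tumours 7, 2, 5 and 4, and was not detected in tumours 1, 3 and 6. Apcdd1, a membrane inhibitor of Wnt signals, was 9.60 in the control and 11.68, 11.60 and 11.41 in the same tumours 7, 2 and 5, against at most 10.27 in the others. Nkd2, an inhibitor that acts on Dishevelled, was instead highest in tumour 3, at 8.65 against 6.47 in the control. Sp5 and Apcdd1 were thus high in tumours 2 and 7, where Wnt2 and Wnt10a were highest. These targets were also high in tumour 5, where neither ligand was detected. Wnt10b was detected in tumour 5, and also in tumour 4, where Sp5 read 5.80 and Apcdd1 10.27. Axin2 read 6.33 in tumour 5, against 7.84 in the control. The part of any ligand in these levels was not tested.

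**Figure D5:**
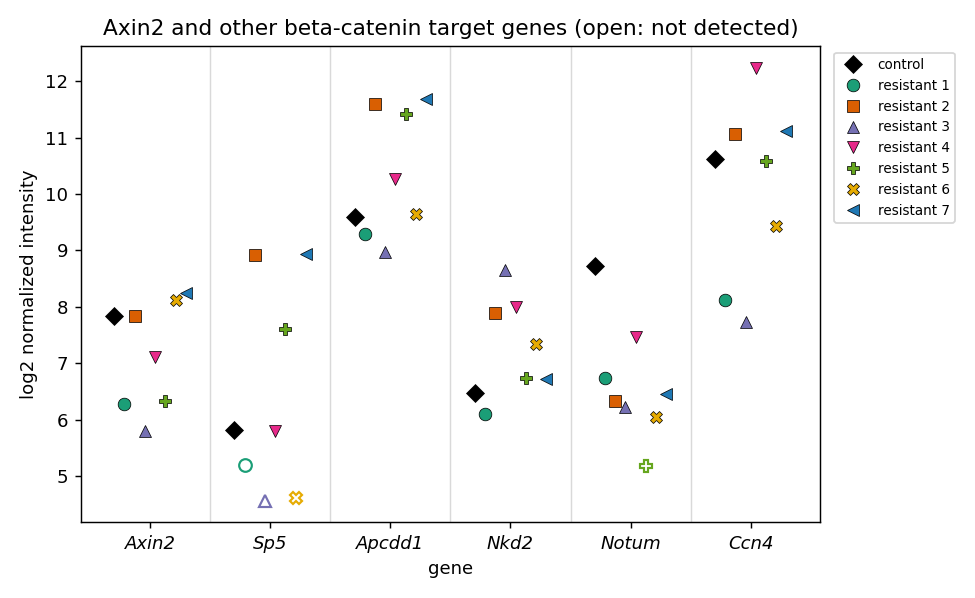
Log2 normalized intensity of Axin2 and other genes of the beta-catenin branch in each tumour (open where not detected). Sp5 and Apcdd1 are high in tumours 2, 5 and 7, whereas Axin2 at 5.80 is lowest in tumour 3 and Notum is highest in the control at 8.72.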

How the data were processed

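Biotin-labelled RNA of 8 mouse melanomas was read on Illumina bead arrays, per the labels' protocols, with a single array for each tumour. GenomeStudio is named in the submitters' processing notes without a version. The authors deposited linear probe intensity that is not normalized, each value with its detection p-value, and a table of normalized intensity that ranks the probes as the first does (Spearman coefficient 0.999998 on each array). The sources used here do not give the normalization step of that table, which served only for comparison.

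The sample titles give the groups, 7 resistant tumours and 1 control. The platform annotation names 23978 of 25697 probes by 1 gene symbol, 0 by several and leaves 1719 without. Symbols were updated by gene ID through the RefSeq table of GRCm38.p6 (23962 probes matched). Intensities were corrected with limma's neqc (offset 16, background inferred from detection p-values), then quantile normalized as log2 values. Genes with a probe at a detection p under 0.05 on at least 1 array were kept (10461), each represented by its detected probe with the highest mean. Of the members, 4 had more than 1 detected probe. Where a group or tumour was not detected, a fold is given as "at least", against the higher of the array's lowest detected signal and the probe's own signal.

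Resistant and control were compared with limma's lmFit and eBayes, two-sided, with Benjamini-Hochberg adjustment over all genes. All adjusted p-values are limma's, and with 1 control the spread comes from the resistant tumours only. Precision is limited by the number of arrays. The test was checked on simulated data that gave the control the same spread as the resistant tumours. That check cannot show how typical the single control is, nor how the detection filter acts. The rule for named genes takes every detected member and, from each of 3 pathway lists, the 3 genes with the smallest p and the gene with the widest range. The members and lists were chosen with earlier results of these data known. Settings varied one at a time were the detection filter, the background correction, the scaling, the input table (the deposited normalized values), the probe rule, the variance model, a 2-fold limit and the tumours left out. No chip or array position is named in the columns, and no batch was tested. R 4.3.3 and limma 3.58.1 were used.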

Additional observations from a re-analysis of the deposited data

Results flagged for a closer look

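In 9 of 30 detected members, 1 resistant tumour lay far from the other 6, with a gap to its nearest neighbour above Dixon's critical share of the range of the 7. Chance alone flags about 1 in 20 groups, and where most tumours are at background a single detected value is enough. Of these 9, 3 were high in tumour 6: Wnt9b (6.86), Fzd8 (7.75) and Fzd10 (5.16). In tumour 3, Lgr5 stood above the rest at 8.70 and Dkk3 below them at 8.57. Tumour 5 stood above the rest for Wnt10b (6.45) and Rspo4 (5.76), and tumour 7 for Sfrp5 (5.44). For Wnt6, tumour 2 stood apart at 5.25, a value that was not detected.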

How the results depend on the processing

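The arrays carry 1 control, so every difference rests on that tumour. The genes called lower numbered 22 and moved to 8 with no background correction and on the authors' normalized values, 35 without the detection filter, 5 without resistant tumours 1 and 2 together (chosen after seeing the data), and 0 with genes detected on at least 4 arrays or a 2-fold limit. The genes called higher numbered 1 and moved to 4 with an offset of 50, without the detection filter or with an intensity trend, and to 0 with the 2-fold limit or without tumours 1 and 2. Leaving out each resistant tumour gave 5 to 50 genes lower (50 without tumour 1, 5 without tumour 2) and 1 to 8 higher. The members called lower, 1 in the report, were 2 with an offset of 50 or median scaling. They were 0 with no background correction, on the authors' values, with at least 4 arrays, with the 2-fold limit and without tumours 1 and 2, and 0 to 2 when each tumour was left out. The count of members called higher was 0 throughout. The median number of members at least 2-fold higher fell from 2 to 1 with no background correction and on the authors' values. Detected members fell from 30 to 18 when at least 4 arrays were required.

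For Rspo3 the adjusted p ran from 0.0136 to 0.816 over its alternatives, with a difference between -2.43 and -1.31. Median scaling moved the median of all genes to -0.20 and turned Dkk3 to -0.24, Fzd7 to -0.13, Wnt5a to -0.10 and Wnt7b to -0.31. Without tumours 1 and 2, Dkk3 was -0.056, Wnt2 -0.13, Fzd6 0.025, Lgr5 0.018, Lrp5 0.084 and Wnt5b 0.042. The mean of probes gave -0.050 for Dkk3, and an offset of 50 gave 0.059 for Lgr5. When each resistant tumour was left out, the difference turned sign for 11 members. Its range was -0.12 to 0.59 for Dkk3, -0.040 to 0.061 for Fzd10, -0.14 to 0.043 for Fzd4, -0.12 to 0.076 for Fzd6, -0.035 to 0.31 for Fzd7, -0.13 to 0.023 for Lrp5, -0.29 to 0.73 for Wnt2, -0.060 to 0.71 for Wnt5a, -0.15 to 0.031 for Wnt5b, -0.17 to 0.22 for Wnt7b and -0.13 to 0.28 for Wnt9b. None of these members passed the test in any setting, and the cause was not tested. Members near the lowest detected level, such as Wnt4, Wnt6, Fzd10 and Lrp6, have only bounds on most arrays. No paired analysis was possible because there is 1 control tumour and the resistant tumours' numbers pair with nothing.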
